A study of Mus musculus with 6 samples.

Results

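The enzymes of glycolysis, from the trapping of glucose to the formation of lactate, were followed through 10 genes in the soft palate of mouse embryos: Hk1, Gpi1, Pfkl, Aldoa, Tpi1, Gapdh, Pgk1, Pgam1, Eno1 and Ldha. They were chosen as the widely expressed isozyme of their step, with no gene for pyruvate kinase among them, and all 10 of 10 were found among the 21938 genes of the deposited table. RNA of the soft palate, the muscular posterior part of the palate, was sequenced at E14.0 from 3 mutant libraries (replicates 5, 6 and 7) and 3 control libraries (replicates 1, 2 and 3). The mutants were Osr2-Cre;b-cateninfl/fl: a Cre recombinase driven by Osr2, a gene of the palatal mesenchyme, removes β-catenin from cells that have used it. The controls were b-cateninfl/fl in the extraction protocol, so that both groups carried the floxed alleles, while the genotype label of the same samples reads wild type. Cells outside that lineage keep their β-catenin in the mutants, and bulk tissue holds them too. The labels do not say whether a library came from 1 embryo or a pool, so a p-value here speaks of the spread among these 6 libraries.

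Glycolysis splits glucose into pyruvate in the cytosol and yields ATP without oxygen, and lactate dehydrogenase then turns pyruvate into lactate, which restores the NAD+ that Gapdh uses. The early enzymes spend ATP to phosphorylate and cleave the sugar, and the later ones recover it. Proliferating embryonic tissues are known to use the pathway heavily, and skeletal muscle has isozymes of its own for several steps. Many of these genes are textbook targets of the hypoxia-inducible factor HIF1 and of Myc, and most have processed pseudogenes, which are copies of their mRNA pasted elsewhere in the genome.

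The table held CPM, in which the reads of a gene are set against all counted reads of its library. The spacing of low values put the counted reads at 12272875, 13153568 and 15089481 in mutant libraries 5, 6 and 7, and at 12502891, 10018685 and 12842741 in control libraries 1, 2 and 3. The fewest reads behind any value of the 10 genes were then about 501, for Hk1 in control 2, a counting error of 4.47%. Ctnnb1, the targeted gene, which encodes β-catenin, had 584.6, 633.4 and 581.5 CPM in mutants, against 698.5, 784.5 and 671.4 CPM in controls, with no overlap and an adjusted p of 0.183 in limma. A level for the whole gene also holds reads from outside the floxed part and from cells without Cre. Log2 changes below are of log2(CPM + 1), mutant minus control, with the standard error, and a gene was called where its p, adjusted over all 21938 genes, was below 0.05.

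Of the 10 genes, 1 was called, Gapdh, which fell in the mutants; 0.283% of all genes were called lower and 0.196% higher. All 10 had a log2 change below 0, against 43.9% of all genes. In 8 of the 10 every mutant library lay below every control library, against 10.8% of all genes, and in 0 every mutant library lay above, against 17.1%. The same number, 8, were lower at an unadjusted p below 0.05, against 8.07% of all genes, and 0 were higher, against 13.4%. Their median log2 change was -0.31, against 0.04 over all genes. The 10 genes lay at mean levels between 50.7 and 228 CPM, and over the 3673 genes in that range the median was -0.01. Of the genes in that range 0.681% were called lower and 0.245% higher, 16.2% had every mutant library below every control library, 13.5% were lower at an unadjusted p below 0.05, and 52.2% had a log2 change below 0. The 10 genes summed to 994.8, 984.8 and 1023 CPM in the mutants, against 1203, 1369 and 1252 CPM in the controls. The sums did not overlap, and the mean of the mutants, 1001 ± 19.8 CPM, was 78.5% of the control mean of 1275 ± 85.2 CPM (SD, n = 3 each). The sum over the genes is a description and was given no test. In bulk tissue, fewer cells of a type and less RNA per cell cannot be told apart.

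**Figure D1:**
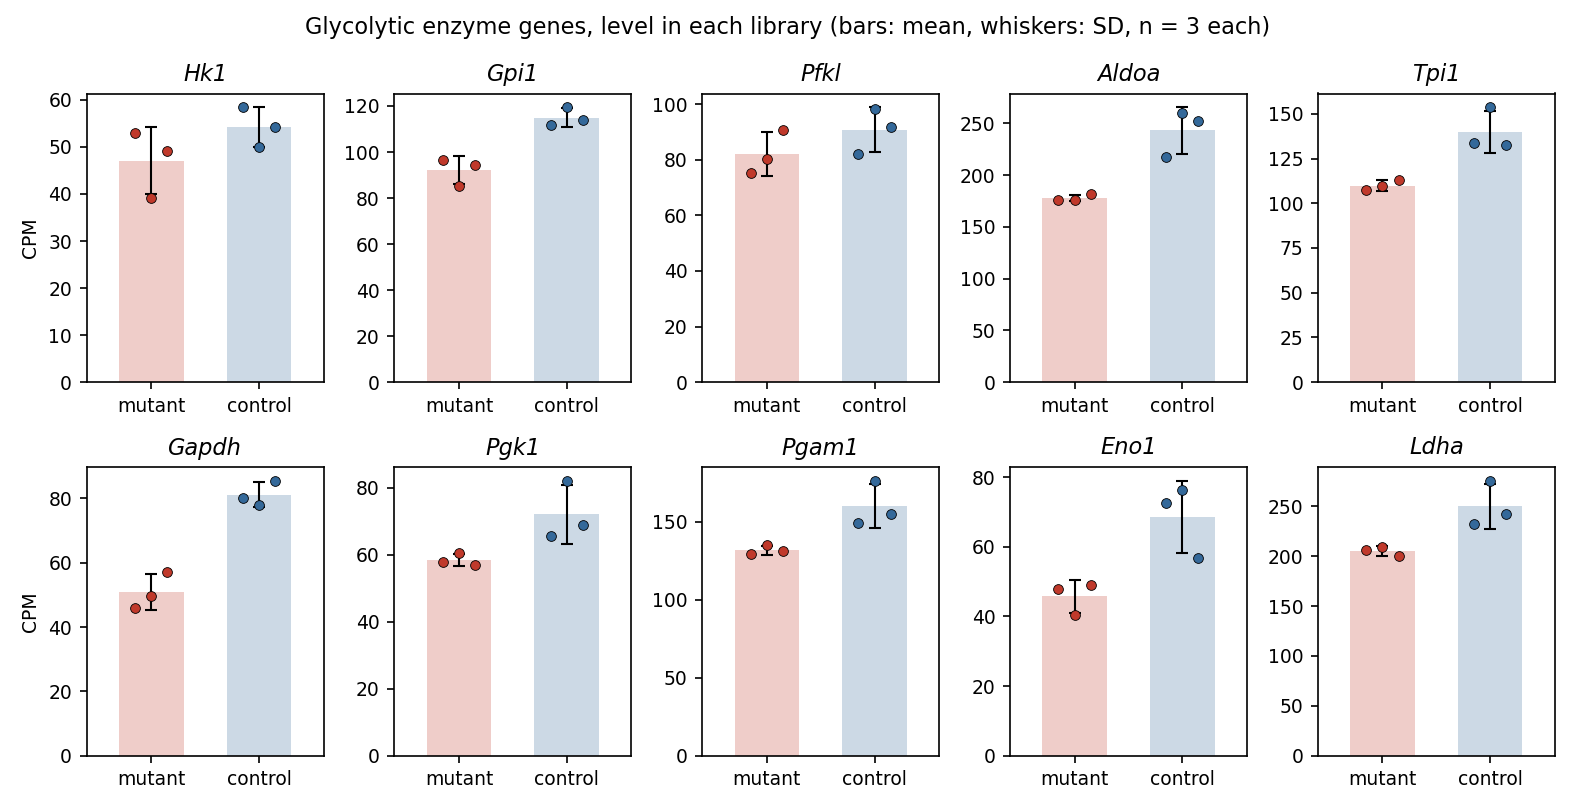
Level of each of the 10 glycolytic enzyme genes in each library, in CPM on an axis of its own from 0, in pathway order, with mutants left of controls; points are libraries, bars are means and whiskers are SD (n = 3 each). In 8 genes all 3 mutant points lie below all 3 control points, and in Hk1 and Pfkl the groups overlap.

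The promoters of the 10 genes were searched for the core of the HIF binding site, ACGTG or GCGTG, and for the core of the TCF/LEF site bound by partners of β-catenin, CTTTG, on both strands. RefSeq (GRCm38.p6) gives 16 start sites for them, and the 250 bases before each were read. A HIF core was found at 8 of the 10 genes, where 41.5% of all 27025 genes have one at any start. Gpi1 and Tpi1 had none. A TCF/LEF core was found at 5 of the 10, Aldoa, Gapdh, Pgk1, Eno1 and Ldha, where 52.2% of all genes have one. All 27025 genes together have 32851 windows, fewer a gene than the 16 of these 10. Neither share was matched for start sites or base composition, so enrichment cannot be read from them. Printed here are the window of Gapdh, the called gene, and those of Pgk1 and Ldha, textbook HIF targets that were not called; capitals mark the HIF cores on either strand, and overlapping cores run together.
Gapdh, chr6:125165774-125166023, minus strand: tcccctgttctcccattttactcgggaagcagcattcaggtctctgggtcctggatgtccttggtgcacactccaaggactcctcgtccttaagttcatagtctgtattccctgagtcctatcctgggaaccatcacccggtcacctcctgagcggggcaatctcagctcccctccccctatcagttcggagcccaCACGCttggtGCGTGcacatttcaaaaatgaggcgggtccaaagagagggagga
Pgk1, chrX:106186850-106187099, plus strand: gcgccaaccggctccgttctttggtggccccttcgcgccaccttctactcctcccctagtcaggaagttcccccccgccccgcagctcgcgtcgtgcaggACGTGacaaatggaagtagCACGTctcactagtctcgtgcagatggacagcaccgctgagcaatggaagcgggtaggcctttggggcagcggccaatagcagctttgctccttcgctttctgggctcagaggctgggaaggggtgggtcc
Ldha, chr7:46845554-46845803, plus strand: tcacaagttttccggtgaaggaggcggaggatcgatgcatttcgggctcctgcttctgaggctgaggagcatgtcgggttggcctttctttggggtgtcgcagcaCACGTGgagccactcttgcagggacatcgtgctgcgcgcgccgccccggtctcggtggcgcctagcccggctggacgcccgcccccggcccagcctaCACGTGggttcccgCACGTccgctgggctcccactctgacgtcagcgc
The windows hold 2, 2 and 3 HIF cores and 1, 3 and 1 TCF/LEF cores. A match to 5 letters is a description of the sequence and not a bound site.

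Hk1, Gpi1 and Pfkl carry glucose through its first phosphorylations. Hk1, hexokinase 1, traps glucose in the cell as glucose 6-phosphate (chromosome 10, 62268855 to 62379908, minus strand; this and the positions below are of GRCm38 with GENCODE vM21). It had 53.0, 39.1 and 49.2 CPM in mutants 5, 6 and 7, against 58.4, 50.01 and 54.3 CPM in controls 1, 2 and 3. Mutant 5 lay above control 2, so the groups overlapped, and the log2 change was -0.21 ± 0.13 with an adjusted p of 0.379 in limma. Hk1os, an antisense gene, overlaps Hk1 in the annotation, and since no strand is given for the libraries its reads cannot be told apart from those of Hk1.

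Gpi1 (chromosome 7, 34201330 to 34230336, minus strand) turns glucose 6-phosphate into fructose 6-phosphate. Its levels were 96.6, 85.1 and 94.4 CPM in mutants, against 111.7, 119.4 and 113.8 CPM in controls. All mutant libraries lay below all control libraries, with a log2 change of -0.32 ± 0.09 that was not called (adjusted p = 0.103 in limma). Pfkl, the liver-type phosphofructokinase subunit of the committing step (chromosome 10, 77986947 to 78010083, minus strand), had 75.1, 80.2 and 90.7 CPM in mutants, against 82.1, 98.3 and 91.8 CPM in controls. Mutant 7 lay above control 1. With a log2 change of -0.14 ± 0.11 and an adjusted p of 0.463 in limma, Pfkl had the smallest difference of the 10.

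Aldoa and Tpi1 cleave the sugar and balance the resulting triose phosphates. Aldoa, aldolase A (chromosome 7, 126795234 to 126800751, minus strand), had 175.9, 176.4 and 181.8 CPM in mutants, against 217.8, 259.7 and 252.4 CPM in controls. The mutants lay close together and below every control, at 73.2% of the control mean. Its log2 change of -0.44 ± 0.09 had an adjusted p of 0.0678 in limma and was not called. The annotation gives 2 gene records under the symbol Aldoa, and the table has 1 column for them.

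Tpi1, triose phosphate isomerase (chromosome 6, 124810586 to 124814296, minus strand), had 107.2, 109.4 and 113.0 CPM in mutants, against 133.5, 153.7 and 132.7 CPM in controls. The groups were apart, and control 2 stood highest. The log2 change was -0.34 ± 0.09 (adjusted p = 0.0946 in limma).

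The enzymes that follow recover energy from the trioses, beginning with Gapdh, the dehydrogenase that adds phosphate and passes electrons to NAD+ (chromosome 6, 125161715 to 125166467, minus strand). Gapdh had 45.9, 49.6 and 57.1 CPM in mutants, against 80.1, 77.8 and 85.5 CPM in controls. The highest mutant lay well below the lowest control. Gapdh averaged 50.9 ± 5.70 CPM in mutants, 62.7% of the 81.1 ± 3.94 CPM in controls (SD, n = 3 each). The log2 change of -0.67 ± 0.10 was the most negative of the 10, and it was called (adjusted p = 0.0390 in limma). Of all genes, 2.16% had a log2 change as low or lower. The authors deposited a second, filtered table from the same 6 libraries. It holds 2432 of the 21938 genes and 1 of the 10, Gapdh, a like share, so its presence there adds no separate evidence. The call held without control 2 (adjusted p = 0.0385 in limma) and was lost without any other single library, with adjusted p of 0.0875 without mutant 5, 0.120 without mutant 6, 0.130 without mutant 7, 0.116 without control 1 and 0.111 without control 3, while the log2 change stayed between -0.75 and -0.60 in all 6 such fits. Without a trend of the variance with level the adjusted p was 0.0843.

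Pgk1, phosphoglycerate kinase, makes the first ATP of the pathway (chromosome X, 106187100 to 106203699, plus strand). It had 57.7, 60.4 and 56.9 CPM in mutants, against 65.4, 82.0 and 68.7 CPM in controls. The groups did not overlap, and the log2 change of -0.29 ± 0.10 was not called (adjusted p = 0.162 in limma). Pgam1, phosphoglycerate mutase, moves the phosphate along the molecule (chromosome 19, 41911923 to 41918660, plus strand). Pgam1 had 129.3, 134.8 and 130.9 CPM in mutants, against 149.3, 176.2 and 154.6 CPM in controls. Again the groups were apart, with a log2 change of -0.28 ± 0.09 and an adjusted p of 0.137 in limma.

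Eno1, enolase 1, forms phosphoenolpyruvate (chromosome 4, 150236721 to 150248879, plus strand). It had 47.8, 40.4 and 49.0 CPM in mutants, against 72.5, 76.4 and 56.8 CPM in controls. The groups did not overlap, although control 3 stood nearer to the mutants than to the other controls. At -0.57 ± 0.13 its log2 change was the next most negative after that of Gapdh, and it was not called (adjusted p = 0.0785 in limma). Ldha, the lactate dehydrogenase subunit that favours lactate formation (chromosome 7, 46841475 to 46855627, plus strand), had 206.4, 209.3 and 199.9 CPM in mutants, against 232.4, 275.6 and 241.8 CPM in controls. The mutants lay below every control, with a log2 change of -0.28 ± 0.09 (adjusted p = 0.136 in limma).

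**Figure D2:**
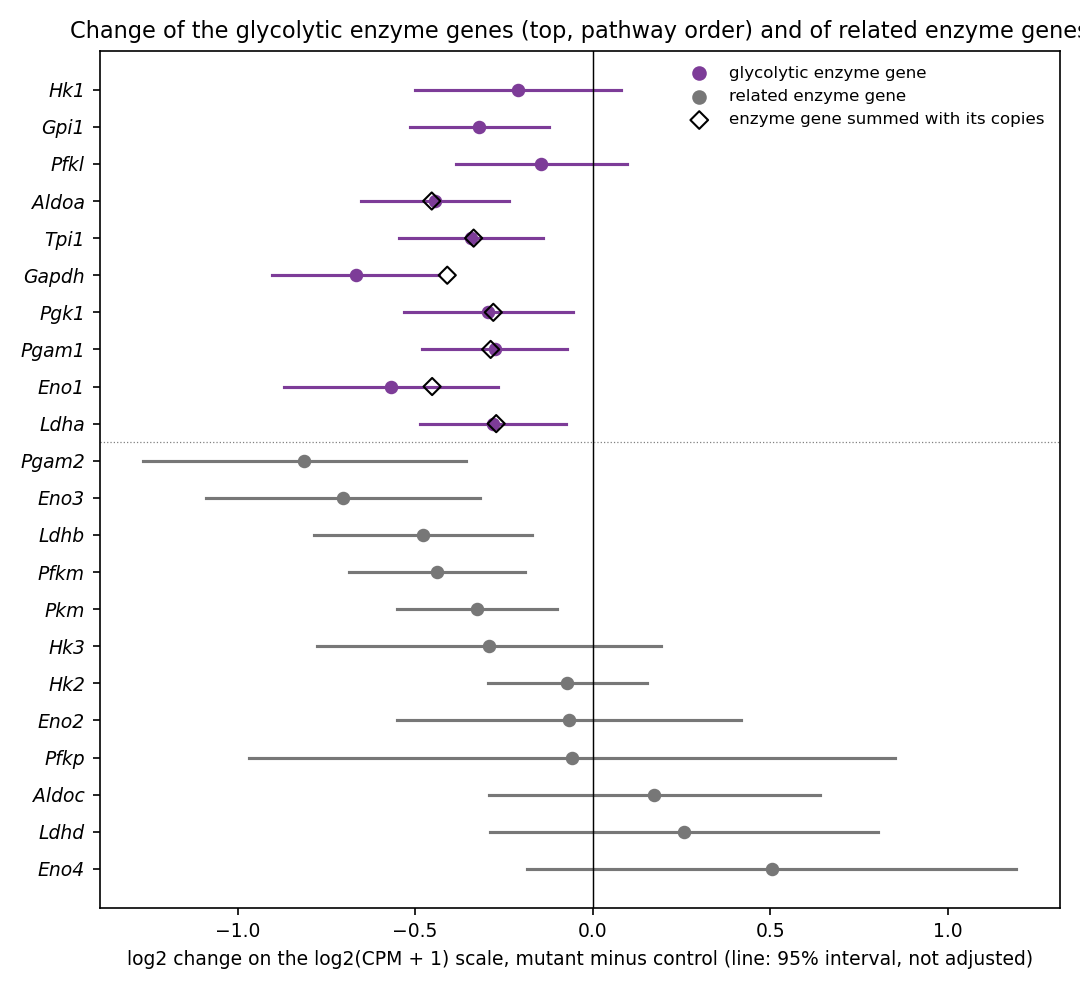
Log2 change, mutant minus control, of the 10 glycolytic enzyme genes and of related enzyme genes at 1 CPM or more, on the log2(CPM + 1) scale; lines are unadjusted 95% intervals of the limma fit, and diamonds mark a gene summed with its copies. All 10 genes lie left of 0 and the intervals of Hk1 and Pfkl cross it; of the related genes Pgam2 and Eno3 lie farthest left.

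Divided by the length of all annotated exons of a gene, taken over all its transcripts, the levels of the 10 genes differed widely. That length exceeds the main transcript, at 4133 against 1420 bases for Gapdh, and the order of the genes depends on it. In mutants they ran from Pgam1 at 66.4 CPM per kilobase through Ldha at 62.0, Aldoa at 61.2, Tpi1 at 39.9, Pgk1 at 26.0, Gpi1 at 14.3, Gapdh at 12.3, Pfkl at 12.3 and Eno1 at 8.51 to Hk1 at 5.52. In controls they ran from Aldoa at 83.6 CPM per kilobase through Pgam1 at 80.7, Ldha at 75.5, Tpi1 at 50.8, Pgk1 at 32.1, Gapdh at 19.6, Gpi1 at 17.8, Pfkl at 13.6 and Eno1 at 12.8 to Hk1 at 6.36. Neighbours whose libraries overlapped were Ldha with Aldoa, Gpi1 with Gapdh and Gapdh with Pfkl in mutants, and Aldoa with Pgam1, Pgam1 with Ldha and Pfkl with Eno1 in controls. Gapdh thus stood next to Pfkl in mutants, but above Gpi1 in every control. These levels leave out reads that counting placed in copies of a gene, which were 86.5% of those in Eno1 and its copies. The order of the genes therefore also depends on how such reads were placed.

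Those copies hold a large part of the reads for several steps. Copies were the pseudogenes and retrogenes of the table whose annotated transcript matched that of an enzyme gene at 90% identity or more over at least 300 bases, 47 in all. Of the reads in a gene and its copies together, the copies held 86.5% for Eno1, 65.2% for Pgk1, 35.9% for Gapdh, 25.6% for Pgam1, 17.9% for Ldha, 4.6% for Aldoa and 3.1% for Tpi1. Hk1, Gpi1 and Pfkl had none in the table. The annotation held 177 genes with such a match to Gapdh, of which 32 copies were in the table. How the counting divided a read that fits several of these places is not stated in the labels or files, so the values of single genes above are uncertain to that extent. Some values were smaller than 1 read. Gm12070, a copy of Gapdh, had 0.000235 CPM in mutant 5, where 1 read is 0.0815 CPM. A gene and its near-identical copies may thus hold parts of the same reads, and their levels are not separate measurements.

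Eno1b, an intronless protein-coding copy of Eno1 on chromosome 18, matched it at 99.5% over 1736 bases and held more reads than Eno1 itself. It had 230.4, 241.3 and 238.9 CPM in mutants, against 331.9, 353.6 and 364.2 CPM in controls. Eno1b fell, with a log2 change of -0.56 ± 0.08 and an adjusted p of 0.0327 in limma, close to the log2 change of Eno1. Gm4735, a processed pseudogene of Eno1 on chromosome 2 that matched at 99.6%, had 82.1, 69.1 and 75.7 CPM in mutants, against 69.0, 72.8 and 74.3 CPM in controls, with overlap. Eno1 summed with both had 360.3, 350.8 and 363.6 CPM in mutants, against 473.4, 502.8 and 495.3 CPM in controls. That sum, chosen after seeing the data, had a log2 change of -0.45 and an adjusted p of 0.0543 in limma. With only the copies named by their symbols, which leaves out Gm4735, these were -0.56 and 0.0296 in limma.

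The copies of Gapdh went both ways. Of 32, 16 had a log2 change below 0, against 43.9% of all genes, and 16 above, and 0 were called in limma. Most of the 32 averaged below 1 CPM, so their single directions say little. Gm12070, for example, had 1.73 CPM in control 2 and was near 0 in the other libraries. Gm12537, which like Gm12070 matched Gapdh at 99.9%, had the same 1.73 CPM in control 2. Whether both values hold parts of the same reads was not tested. Gm7336, a pseudogene that matched Gapdh at 99.8%, averaged 3.39 ± 0.689 CPM in mutants and 6.69 ± 0.908 CPM in controls (SD, n = 3 each), with no overlap and a log2 change of -0.81 ± 0.19 (adjusted p = 0.0804 in limma). Gm11960, which matched at 93.4%, averaged 6.54 ± 1.28 CPM in mutants and 3.22 ± 1.00 CPM in controls, also apart, with a log2 change of 0.85 ± 0.24 (adjusted p = 0.108 in limma). The 32 copies of Gapdh together had 41.1, 32.4 and 38.9 CPM in mutants, against 27.7, 47.0 and 34.7 CPM in controls, and the groups overlapped. Gapdh with its copies had 86.9, 82.0 and 96.0 CPM in mutants, against 107.8, 124.8 and 120.2 CPM in controls. These sums did not overlap, and their log2 change of -0.41 had an adjusted p of 0.0805 in limma, so the call on Gapdh was not kept for the sum. The sum was chosen after seeing the data and also holds less similar copies, such as Gm11960. Their part in the lost call was not tested. The share of these reads in Gapdh itself was 52.8, 60.5 and 59.4% in mutants, against 74.3, 62.4 and 71.1% in controls, with no overlap.

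The copies of Pgk1 were Gm5537 and Pgk1-rs7, identical to its transcript over 1252 and 1255 bases. They averaged 58.6 ± 1.96 and 52.1 ± 1.73 CPM in mutants, against 70.7 ± 3.45 and 62.9 ± 3.06 CPM in controls (SD, n = 3 each). A read within an identical stretch fits Pgk1 and a copy alike, so these levels and that of Pgk1 are not separate measurements. Pgk1 held a like share of the summed reads in both groups, 34.5 ± 0.485% in mutants and 34.99 ± 3.05% in controls. Ldha with its 5 copies had 248.8, 256.2 and 247.1 CPM in mutants, against 282.0, 339.4 and 289.9 CPM in controls. Pgam1 in mutants was at 82.3% of its control mean alone and at 81.6% with its 1 copy, Pgam1-ps2.

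**Figure D3:**
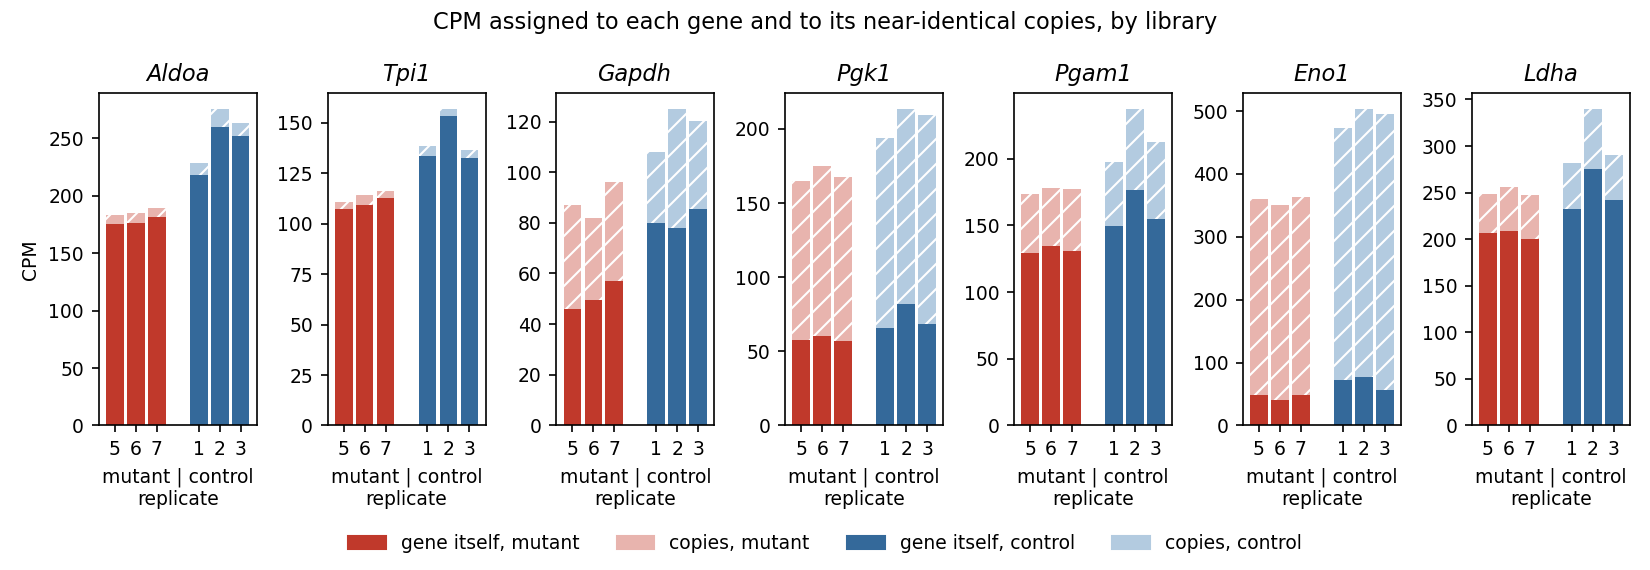
Level of each enzyme gene that has copies (solid) with its copies stacked on it (pale, hatched), in CPM from 0, with 1 bar a library and mutants left of controls. The pale parts overlap between the groups for Gapdh, and for Eno1 and Pgk1 they are shorter in every mutant library.

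Most of these steps also have isozymes with a narrower range of tissues. Of 19 related enzyme genes, which include those for pyruvate kinase, a step not among the 10, 15 were in the table, and 0 were called by limma. At an unadjusted p below 0.05, 5 were lower and 0 higher, against 8.07% and 13.4% of all genes. Their median log2 change was -0.07. Pgam2, the muscle phosphoglycerate mutase, had 9.29, 10.9 and 8.95 CPM in mutants, against 22.2, 12.9 and 19.4 CPM in controls, a log2 change of -0.81 ± 0.20 (adjusted p = 0.0857 in limma). Eno3, the muscle enolase, had 14.7, 13.5 and 12.1 CPM in mutants, against 27.1, 17.6 and 23.6 CPM in controls, a log2 change of -0.70 ± 0.17 (adjusted p = 0.0833 in limma). Pgam2 and Eno3 thus lay below every control in each mutant, and control 2 was the lowest control for both.

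Pfkm, the muscle phosphofructokinase subunit, averaged 40.2 ± 1.45 CPM in mutants and 55.1 ± 6.54 CPM in controls (SD, n = 3 each), with no overlap. Ldhb, the lactate dehydrogenase subunit of oxidative tissues, averaged 36.7 ± 5.64 CPM in mutants and 51.4 ± 5.93 CPM in controls, also apart. Pkm, the pyruvate kinase gene of most tissues outside liver and red cells, had 374.3, 399.3 and 433.2 CPM in mutants, against 463.2, 542.3 and 507.4 CPM in controls, with a log2 change of -0.32 ± 0.10. None of these 3 was called, at adjusted p of 0.0880 for Pfkm, 0.109 for Ldhb and 0.123 for Pkm in limma.

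The remaining related genes at 1 CPM or more overlapped between the groups. Hk2, the insulin-responsive hexokinase, averaged 47.3 ± 3.79 CPM in mutants and 49.7 ± 2.56 CPM in controls. Pfkp, the platelet-type phosphofructokinase, had 72.9, 21.4 and 23.0 CPM in mutants, against 29.95, 32.7 and 41.8 CPM in controls, so mutant 5 stood far above all other libraries. Eno4 had the most positive log2 change of the list, 0.50 ± 0.30 (adjusted p = 0.372 in limma). Aldoc, Eno2, Hk3 and Ldhd had log2 changes between -0.29 and 0.26.

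The share of each widely expressed gene among the isozymes of its step does not move with the scaling of a library. Only reads placed in the gene itself were used, and those in its copies were left out. Pgam1 made up 93.3, 92.5 and 93.6% of the reads of Pgam1 and Pgam2 in mutants, against 87.0, 93.2 and 88.9% in controls (exact permutation test, two-sided, p = 0.2). Aldoa made up 94.4 ± 1.41% of the reads with Aldoc in mutants and 96.4 ± 0.665% in controls (SD, n = 3 each; exact permutation test, p = 0.2). For both genes the groups overlapped. For Hk1 with Hk2, Pfkl with Pfkm and Pfkp, Eno1 with Eno2 and Eno3, and Ldha with Ldhb the exact p were 0.5, 0.8, 1.0 and 0.4, where 0.1 is the smallest that 3 against 3 libraries allow. With its copies added, an alternative chosen after seeing the data, Eno1 made up 94.3 ± 0.606% of the reads in mutants and 93.9 ± 0.681% in controls (SD, n = 3 each; exact permutation test, p = 0.6).

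Of the genes around the pathway, 0 were called in limma in any of the lists that follow. For glucose uptake and lactate export, 2 of 11 genes were higher and 2 lower at an unadjusted p below 0.05, where 13.4% of all genes were higher and 8.07% lower. Slc2a1, a widely expressed glucose transporter, had 102.7, 140.5 and 131.6 CPM in mutants, against 102.8, 166.2 and 116.6 CPM in controls, with broad overlap. Emb, a partner protein of lactate transporters, averaged 54.4 ± 12.9 CPM in mutants and 34.4 ± 6.602 CPM in controls, with a log2 change of 0.64 ± 0.18 (adjusted p = 0.112 in limma). Of the lactate and pyruvate transporters, Slc16a3 averaged 13.3 ± 2.83 CPM in mutants and 20.4 ± 6.94 CPM in controls. Slc16a7 averaged 30.9 ± 5.25 CPM in mutants and 23.4 ± 3.56 CPM in controls. For both the groups overlapped, with adjusted p of 0.214 and 0.215 in limma.

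For the control of flux, 1 of 13 genes was higher and 1 lower at that p, with the same shares over all genes, which also stand behind the counts of the lists below. Pfkfb2, an enzyme that makes and removes the activator of phosphofructokinase, averaged 22.2 ± 1.54 CPM in mutants and 16.0 ± 2.13 CPM in controls (log2 change 0.45 ± 0.13, adjusted p = 0.115 in limma). Bpgm, which makes 2,3-bisphosphoglycerate in red cells, averaged 31.4 ± 3.43 CPM in mutants and 42.7 ± 10.6 CPM in controls. Among 8 genes for pyruvate dehydrogenase and pyruvate carriers 0 were higher and 2 lower: Pcx, pyruvate carboxylase, averaged 9.82 ± 1.13 CPM in mutants and 15.9 ± 1.84 CPM in controls, and Mpc1, a mitochondrial pyruvate carrier subunit, averaged 14.3 ± 0.977 CPM in mutants and 18.5 ± 1.19 CPM in controls.

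Of the pentose phosphate pathway, 0 of 8 genes passed the unadjusted p in either direction, and of the 2 measured genes of gluconeogenesis 0 did. Of the serine and glycerol branches 1 of 8 was lower: Phgdh, the first enzyme of serine synthesis, averaged 16.3 ± 0.900 CPM in mutants and 24.0 ± 1.69 CPM in controls (log2 change -0.53 ± 0.11, adjusted p = 0.0708 in limma). Of 13 glycogen genes 3 were lower. Among them Pygm, the muscle glycogen phosphorylase, averaged 8.80 ± 0.812 CPM in mutants and 18.2 ± 6.86 CPM in controls (log2 change -0.90 ± 0.26, adjusted p = 0.113 in limma).

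Of 14 regulators of the pathway's genes, 0 were higher and 4 lower at an unadjusted p below 0.05, against 13.4% and 8.07% of all genes, and 0 were called by limma. Hif1a, the oxygen-regulated subunit of HIF1, had 202.3, 235.3 and 205.7 CPM in mutants, against 204.5, 188.2 and 238.1 CPM in controls, which overlapped throughout. Myc, a transcription factor with many metabolic targets, averaged 29.7 ± 2.23 CPM in mutants and 37.9 ± 2.09 CPM in controls, with a log2 change of -0.34 ± 0.10 (adjusted p = 0.122 in limma). Egln3, a prolyl hydroxylase that marks HIF subunits for breakdown and is itself induced in hypoxia, averaged 11.3 ± 2.67 CPM in mutants and 16.8 ± 2.79 CPM in controls.

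A list of 20 hypoxia-induced genes had a median log2 change of 0.01, with 2 higher and 3 lower at that p, against 13.4% and 8.07% of all genes. Vegfa, the vessel growth factor, averaged 101 ± 1.71 CPM in mutants and 82.6 ± 4.84 CPM in controls (log2 change 0.29 ± 0.08, adjusted p = 0.113 in limma). Kdm3a, a histone demethylase, had a log2 change of 0.29 ± 0.09, whereas Bnip3, a mitophagy receptor, had -0.35 ± 0.12 and Loxl2, a matrix crosslinking enzyme, -0.42 ± 0.15. These 3 had adjusted p between 0.129 and 0.160 in limma. The list shares Egln3, Pfkfb3 and Pfkfb4 with lists above.

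**Figure D4:**
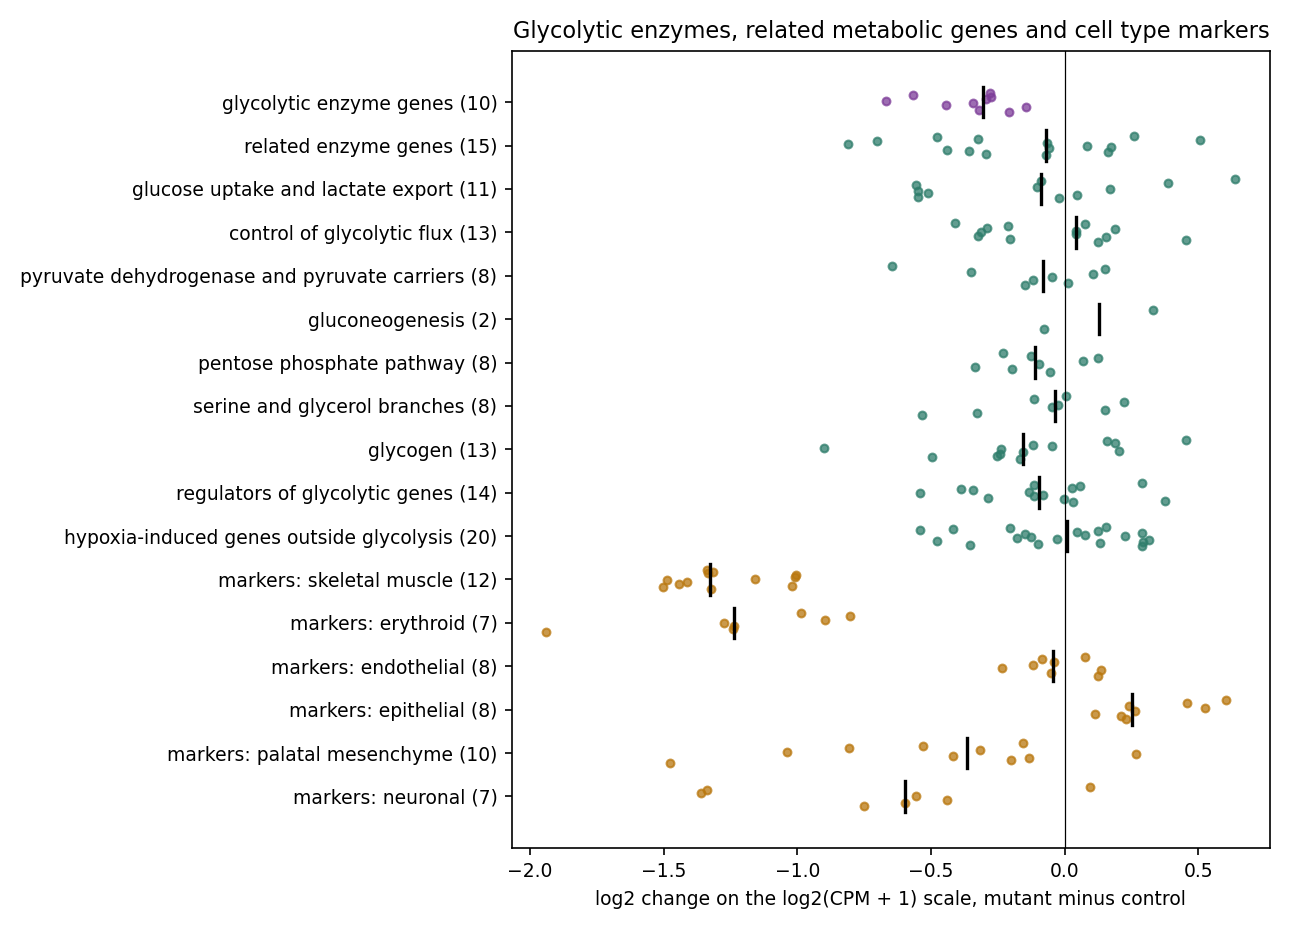
Log2 change, mutant minus control, of each gene of the 10 enzymes, of the lists around the pathway and of the cell type markers, on the log2(CPM + 1) scale; points are genes and black bars are medians. The median of the 10 enzymes, -0.31, lies below those of the other metabolic lists, between -0.16 and 0.13, the last from 2 genes of gluconeogenesis. Lower still are the medians of muscle (-1.33), erythroid (-1.24), neuronal (-0.60) and palatal mesenchyme (-0.37) markers. Those of endothelial (-0.05) and epithelial (0.25) markers are higher.

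Markers of other cell types differed in level too. All 12 skeletal muscle markers had lower levels in mutants, where 43.9% of all genes had a log2 change below 0. Of the 12, 7 were called in limma, among them Myod1 and Myog, the myogenic regulators, against 0.283% of all genes called lower. Together the 12 summed to 1418 to 1975 CPM in mutants, against 2532 to 5462 CPM in controls. All 7 erythroid markers in the table were lower at an unadjusted p below 0.05, against 8.07% of all genes, and 0 were called, with sums of 753 to 1315 CPM in mutants, against 1517 to 4549 CPM in controls. Epithelial markers summed to 1717 to 2471 CPM in mutants, against 1267 to 2005 CPM in controls. Of their log2 changes 8 of 8 were above 0, against 12311 of all 21938 genes, and 0 were called. Markers of the palatal mesenchyme summed to 805 to 1031 CPM in mutants, against 1051 to 1261 CPM in controls. Most of that sum was Prrx1 and Pdgfra, which overlapped between the groups (log2 changes -0.13 and -0.16). Of the 10, 9 had a log2 change below 0, against 43.9% of all genes, and Msx1 lay above. Osr2, the gene that drives Cre in the mutants, was the 1 of 10 called, against 0.283% of all genes called lower. It was also the 1 with no overlap, against 10.8% of all genes with every mutant lower. Only the mutants carry this Cre, so for Osr2 an effect of the Cre allele cannot be told apart from a change in the mesenchyme. Endothelial and neuronal sums overlapped between the groups, and no marker of any list was at 0 in a library. Control 2 had the lowest muscle sum of the controls, 2532 CPM, and the highest sum of the 10 enzymes, 1369 CPM. Reads of genes whose symbol starts with mt- made up 6.67 to 7.53% in mutants, against 4.41 to 6.69% in controls; with libraries rescaled without them and without globin genes, the log2 change of Gapdh was -0.65 and it was called (adjusted p = 0.0408 in limma). The part of these cell types in the levels of the enzyme genes was not tested.

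Outside the pathway, 10043 genes at a mean of 10 CPM or more were ranked by how closely their profile over the 6 libraries, centred on the gene's mean, followed the mean profile of the 10. The closest were Cox6a1, a subunit of cytochrome c oxidase, Hdac11, a histone deacetylase, Rhog, a small GTPase, Fam89b, and Bag6, a chaperone cofactor. Their mean absolute differences from that profile were between 0.02 and 0.03 on the log2 scale. Cox6a1 had 22.8, 22.4 and 23.9 CPM in mutants, against 30.01, 31.4 and 28.8 CPM in controls, and its log2 change of -0.37 ± 0.10 was not called (adjusted p = 0.103 in limma). None of the 5 was called. They were picked for their likeness to the 10 over these same 6 libraries, so their lower level in mutants was set by the choice.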

How the data were processed

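RNA sequencing of 3 mutant and 3 control soft palate libraries was analysed from tables of CPM values that the authors deposited, 1 row a sample, each matched by its name to the labels (0 per-sample columns were left unused). The submitters' processing notes name the aligner STAR and the build mm10. The counting tool, its annotation, the kit and its strand were not stated in the labels or files. A constant of 0.0001 found in every CPM value was removed, after which all libraries had the same sum. Only 63.6 to 66.4% of low values came within 0.02 of a whole number of reads, so reads were not recovered and no count model was fitted; depths are estimates from the smallest step, and their errors cover counting error only. The filtered table holds 2432 of the 21938 genes and 1 of the 10 enzyme genes.

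Values were compared as log2(CPM + 1), which understates the change of low genes, with limma 3.58.1 (R 4.3.3), a prior variance that follows the level, and Benjamini-Hochberg adjustment over 21938 genes, with no filter and a threshold of 0.05. Shares were compared by an exact permutation test in Python 3.11.15 with scipy 1.17.1. The script was tested on simulated data with known changes, all larger than those of the 10 genes, so that test says nothing of changes of their size. Copies were found with blastn 2.17.0 among GENCODE vM21 transcripts; unrelated genes whose transcripts contain such a stretch were left out, and 97.6% of the table's genes matched the annotation by symbol. Promoter windows are from RefSeq, where all 10 genes matched.

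The 10 genes and all lists were chosen with earlier results of these data known. Named are all 10 genes, every related enzyme gene at a mean of 1 CPM or more, in each other list up to 4 genes, called ones first and then by smallest p, of which the text gives the main ones, and the 5 genes of most like profile. Copies, Hif1a, Slc2a1 and the marker genes given were named after their values were seen. Alternatives changed the pseudocount to 0.1, filtered genes below 1 CPM, rescaled the libraries, dropped the trend, left out each library and summed genes with copies.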

Additional observations from a re-analysis of the deposited data

How the results depend on the processing

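All 10 enzyme genes kept a log2 change below 0 in each of the 13 alternatives run, with ranges from -0.22 to -0.08 for Pfkl and from -0.75 to -0.41 for Gapdh. The count of called enzyme genes, 1, was 0 without the variance trend, 0 to 1 when single libraries were left out, 2 with copies named by symbol and 0 with copies found by sequence, an alternative chosen after seeing the data. At an unadjusted p below 0.05 limma gave 7 or 8 of the 10 in every one of these. Over all genes 105 were called, against 0 without the trend and 0 to 452 with a library left out, the highest without control 2. Each such fit compares 2 libraries with 3. With copies named by symbol Eno1 reached an adjusted p of 0.0296 in limma, at a log2 change of -0.56. The summed level of the 10 genes differed by -274 CPM between mutants and controls, and by -310 to -227 CPM with a library left out. The share of Pfkl among its isozymes, 1.47 percentage points higher in mutants, was -2.16 to 7.24 points with a library left out, the lowest without mutant 7 and -0.65 without mutant 6. That of Eno1, -0.49 points, was -2.97 to 1.93, with 0.43 without mutant 5, 0.06 without mutant 6, 1.93 without control 2 and 0.34 with its copies added, an alternative also chosen after seeing the data. The cause of these shifts was not tested. No paired analysis was possible because the 2 groups share no replicate number. With 3 libraries a group, the adjusted p between 0.0678 and 0.103 of Aldoa, Eno1, Tpi1 and Gpi1 do not show that these genes did not differ.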
